A study of Bubalus bubalis with 8 samples.

Results

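Buffalo mammary epithelial cells (MECs) 16 h after heat stress were set against unstressed MECs (CTR), with 1 array for each condition out of 8 arrays in the whole series. The female cells (Bubalus bubalis) came from the mammary tissue of 1 adult animal and were used at passage 10, with 1 plate for control and 1 for heat. The CTR cells stayed at 37 °C, while the stressed cells spent 1 h at 42 °C, went back to 37 °C and were harvested with trypsin after 16 h of recovery. Cy3-labelled total RNA was read on bovine arrays of the 1-colour type, so buffalo transcripts were read with cattle probes. The comparison addresses which transcripts differed from the unstressed level after 16 h of recovery. The label of the single CTR array gives no harvest time, so it cannot be told whether time in culture was matched.

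Of 43653 probes outside the control spots, 12091 could be compared, for 8338 of 24839 gene names. They were well above background on at least 1 of both arrays, lay outside 1 region that was dark on the CTR array and 1 that was dark on the 16 h array, and carried no outlier mark. A further 4388 probes lay in the dark regions, 27125 were dim on both arrays and 49 were lost to outlier marks. A level is a probe's log2 intensity after subtraction of its array's 75th percentile, and a change is the 16 h level minus the CTR level. With 1 array in each condition no test was possible, no p-value is given, and precision is limited by the single array. Repeated spots of a bright probe gave a change an error of 0.54 on the log2 scale, which covers the spots of an array and not the spread between cultures.

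Mammary epithelium holds luminal cells, which make milk, and contractile myoepithelial cells, which lie against the basement membrane. Luminal cells in lactation make caseins and whey proteins, and build milk fat globules from fatty acids that they take up or synthesise. Heat unfolds proteins, and cells answer with heat shock factors that switch on chaperones such as HSP70, HSP90 and the small heat shock proteins. These chaperones hold and refold damaged proteins while the culture recovers.

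Probe sequences are given for the genes on which the main rises and falls turn. The 60-base probes were read from the deposited array files, are written 5′ to 3′ and have no part marked. Both CSN2 probes are shown because 1 of them was bright on both arrays and the other was dim in CTR.

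CSN2 probe A_73_116854: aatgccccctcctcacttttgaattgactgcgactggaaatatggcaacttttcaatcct

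CSN2 probe A_73_P045606: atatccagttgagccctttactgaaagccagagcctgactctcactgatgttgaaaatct

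CSN1S1 probe A_73_P468825: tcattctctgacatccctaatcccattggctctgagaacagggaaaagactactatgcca

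LALBA probe A_73_P038871: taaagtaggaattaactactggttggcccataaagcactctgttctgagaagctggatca

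SCD probe A_73_106141: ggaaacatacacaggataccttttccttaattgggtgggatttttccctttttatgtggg

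ANKRD1 probe A_73_P409356: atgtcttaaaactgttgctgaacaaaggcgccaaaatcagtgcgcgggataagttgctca

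KRT8 probe A_73_P500853: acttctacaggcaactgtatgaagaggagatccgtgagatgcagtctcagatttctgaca

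CALD1 probe A_73_P103601: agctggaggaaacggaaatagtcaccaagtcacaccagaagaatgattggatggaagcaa

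The array design places these probes on the bovine build Btau 3.1, with the strand read from the order in which it writes both ends. Both CSN2 probes lie on the minus strand, at chr6:88329317-88330106 and chr6:88330955-88331014, and the CSN1S1 probe lies on the plus strand of the same chromosome at chr6:88307237-88307296. The LALBA probe lies at chr5:34387982-34388545 and the KRT8 probe at chr5:30002293-30002931, both on the plus strand. The ANKRD1 probe lies on the minus strand at chr26:12911881-12912047 and the CALD1 probe on the plus strand at chr4:102348571-102348628. The design leaves the SCD probe unmapped. Each probe is annotated to the mRNA of its gene, and the exon it falls in was not analysed here.

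The arrays differed in ways that touch the results. The CTR array shared its slide with 8 h, 12 h and 24 h, and the 16 h array shared the other slide with 30 min, 2 h and 4 h, so slide and heat stress cannot be told apart in this comparison. The 30 min array, whose spots carry many outlier marks, is left out of the levels given here. Over 7912 probes bright on all the others, Pearson's r of the 16 h levels was 0.94 with the 4 h array, 0.90 with the 2 h and 24 h arrays, 0.88 with the CTR and 12 h arrays and 0.87 with the 8 h array. These r values run across probes, which are not independent replicates. The 75th percentile signal was 212 in CTR and 121 at 16 h, and the lowest level well above background was -0.33 in CTR and -0.57 at 16 h. All spots at the noise shared a level of -2.51 in CTR and -2.39 at 16 h. A change from or to such a level depends on it, so these probes are given a bound, against the lowest level well above background of the dim array or the probe's own level where that was higher.

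At 16 h, 1151 probes were at least 3-fold higher than in CTR, 9.52% of those compared, and 1286 probes were at least 3-fold lower, 10.6%. Most of these were dim on 1 array. Of 1300 probes above background at 16 h alone, 894 were 3-fold higher, and of 2022 above background in CTR alone, 985 were 3-fold lower. Among the 8769 probes well above background on both arrays, 257 were 3-fold higher (2.93%) and 301 were 3-fold lower (3.43%), with a median change of -0.00. Changes of 10-fold or more were seen in 33 of these bright probes upward and in 12 downward.

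**Figure D1:**
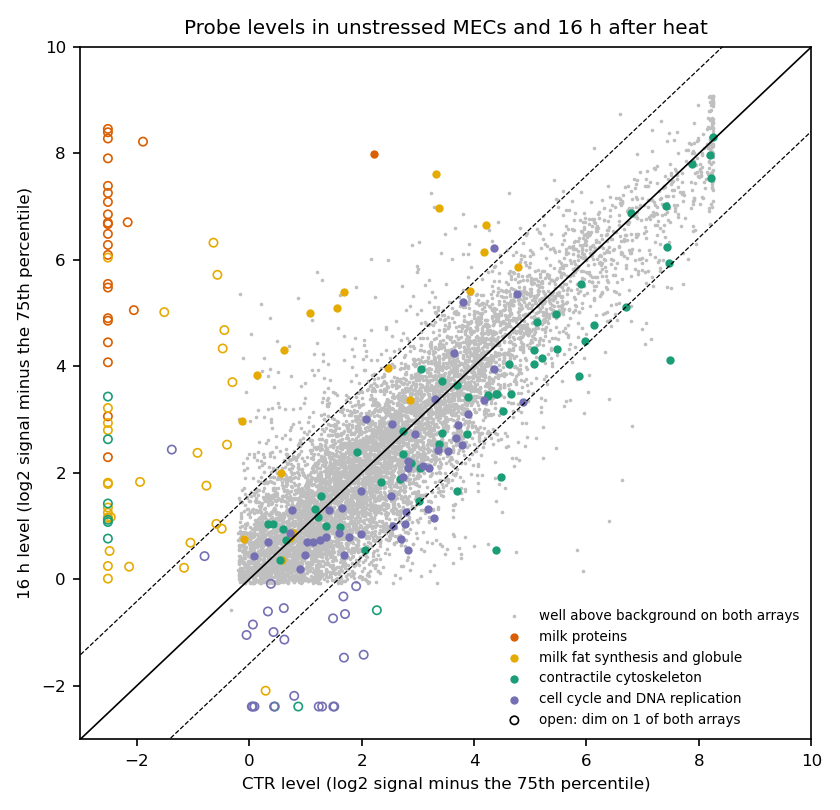
Level of each probe in CTR (x axis) and at 16 h (y axis), in log2 signal minus the 75th percentile, with 1 array each. Grey points are probes well above background on both arrays, coloured points are 4 gene lists, open points were dim on 1 array, and dashed lines mark 3-fold. Most milk protein probes stand at the left edge, at the CTR noise level, with 16 h levels up to 8.46, and the filled one is CSN2 at 2.22 in CTR.

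The falls were unevenly placed on the array. In rows 81 to 180, bright probes of the 16 h array had a median of -0.62 (log2) against the 5 other arrays, and those of the CTR array a median of 0.05. Of 2022 probes compared in these rows, 618 were 3-fold lower (30.6%) and 108 were 3-fold higher (5.34%). Outside these rows 668 of 10069 probes were 3-fold lower (6.63%) and 1043 were 3-fold higher (10.4%). In 2 narrow bands inside them, rows 141 to 145 and 169 to 175, 154 of 263 probes compared were 3-fold lower. The deepest falls by value lay there: CLIC1, a chloride channel protein, went from 5.93 to 0.15, while its other probe changed by -0.41. A probe of ACTB, beta-actin, went from 5.82 to the noise level, at least 84.1-fold lower, while the mildest change of its 3 probes was -0.77. The leading falls are therefore named below from the other rows, and values from rows 81 to 180 are marked as such. These rows were found after the values were seen.

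**Figure D2:**
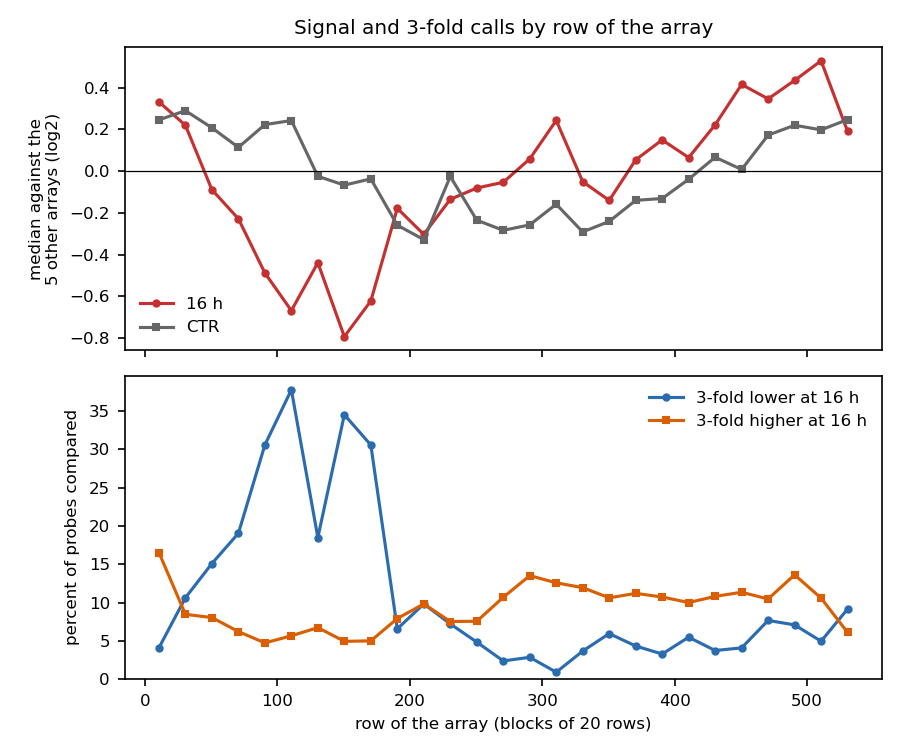
Upper panel: median of bright probes on the 16 h and CTR arrays against their median over 5 other arrays (log2, y axis) in blocks of 20 array rows (x axis). Lower panel: percent of compared probes that were 3-fold lower or higher at 16 h. The 16 h curve dips to -0.79 in rows 141 to 160, and the share of lower probes reaches 37.8% in rows 101 to 120.

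Milk protein transcripts were the highest rises in the comparison. Of 31 probes for milk proteins on the array, 3 lay in the dark regions, 2 were lost to outlier marks, 1 was dim on both arrays and 25 were compared. All 25 were at least 3-fold higher at 16 h, with a median change of 8.87 against -0.08 for all probes compared. Since 24 of them were dim in CTR and entered through the 16 h array, that median describes how bright they were at 16 h and gives no support on its own.

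The probe that was bright on both arrays belonged to CSN2, beta-casein, a major casein of bovine milk. Its level was 2.22 in CTR and 7.98 at 16 h, a 54.1-fold rise. The same probe read 2.71 on the 2 h array and 6.63 on the 4 h array, and between 1.99 and 2.30 on the later ones other than 16 h. It was thus high on the 4 h and 16 h arrays and near the CTR level on the others. The other 3 CSN2 probes compared stood at the CTR noise level and reached between 6.49 and 8.40 at 16 h, at least 113-fold to 423-fold higher.

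The alpha-caseins behaved alike. CSN1S1, alpha-s1-casein, had 5 probes compared, all at the CTR noise level, with 16 h levels from 5.48 to 8.46 and the highest at least 442-fold above CTR. CSN1S2, alpha-s2-casein, had 5 probes from 4.08 to 8.28, the highest at least 390-fold above CTR. CSN3, kappa-casein, which keeps casein micelles in suspension, had 2 probes at 4.45 and 7.39, the higher at least 211-fold above CTR.

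Among the whey proteins, LALBA, alpha-lactalbumin, a part of the enzyme that makes lactose, reached 7.91 at 16 h on its brighter probe, at least 301-fold above CTR. PAEP, beta-lactoglobulin, reached 8.22 from -1.89, at least 375-fold. GLYCAM1, a mucin-like glycoprotein of milk, reached 6.71 from -2.16, at least 131-fold. LTF, lactoferrin, an iron-binding defence protein, had 4 probes from 2.30 to 6.70 at 16 h, the brightest at least 130-fold above CTR. The brightest LTF probe read 3.11 and 2.89 on the 2 h and 4 h arrays, under its 16 h level, while LALBA read 7.11 on the 4 h array.

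Side by side, 25 of the milk protein probes were well above background at 16 h, as were 25 on the 2 h array and 26 on the 4 h array. On the CTR, 8 h, 12 h and 24 h arrays it was 1 each. The arrays with many of these probes above background were all on the slide of the 16 h array. Over all spots, the share well above background ran from 23.3% (24 h) to 33.5% (12 h) on the CTR slide. On the other slide, 30 min aside, it ran from 25.6% (16 h) to 40.2% (2 h). The lowest level well above background was -1.95 for the 2 h array and -0.33 for CTR, so dimmer probes could count on the former. Similar counts did not mean similar levels. The list's median change from CTR was 2.90 for 2 h, 7.69 for 4 h and 8.87 for 16 h.

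**Figure D3:**
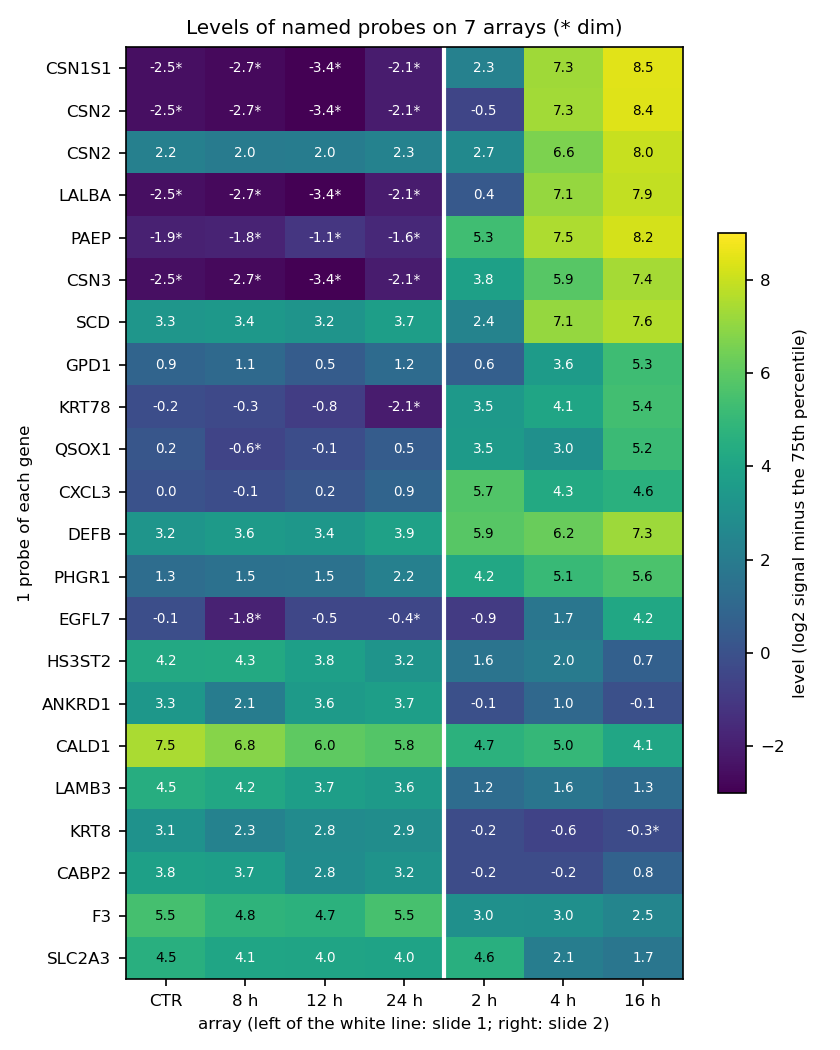
Levels (log2 signal minus the 75th percentile) of 1 probe per row on 7 arrays, with the slide of CTR left of the white line and the slide of the 16 h array right of it; stars mark dim probes. CSN1S1 and LALBA are dim on all 4 arrays of the CTR slide and reach 8.46 and 7.91 at 16 h, and CALD1 and LAMB3 are lower on the 3 arrays of the other slide.

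Most probes of milk fat synthesis and of the fat globule were 3-fold higher as well. Of 98 probes, 10 lay in the dark regions, 38 were dim on both arrays, 1 was lost to outlier marks and 49 were compared, of which 37 were 3-fold higher and 1 was 3-fold lower, against 9.52% and 10.6% of all probes, with a median change of 3.53, and 29 of the 49 were dim in CTR. Among the 19 that were bright on both arrays, 10 were 3-fold higher, against 2.93% of all such probes, none was 3-fold lower and the median change was 1.97. SCD, the desaturase that makes oleic acid from stearic acid, rose 19.7-fold on its brightest probe, from 3.33 to 7.62. That probe read 7.08 on the 4 h array and between 2.36 and 3.71 on the remaining arrays. All 7 SCD probes were compared and were higher, with changes from 3.53 to 4.30 on the 4 that were bright on both arrays, while the other 3 were dim in CTR.

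Other members of the list with large changes were carriers and globule proteins. BTN1A1, butyrophilin, a main protein of the milk fat globule membrane, went from the CTR noise level to 6.04, at least 82.8-fold higher. FABP3, a fatty acid carrier, went from -0.63 to 6.32, at least 101-fold higher. FABP4, a fatty acid carrier of adipocytes and capillaries, went from -0.56 to 5.72, at least 66.2-fold higher. Of the adipocyte markers, FABP4 and CIDEC were compared with 1 probe each, and CIDEC, a lipid droplet protein, rose 5.98-fold, from 0.38 to 2.96; the part of adipocytes was not tested. MUC1, a luminal surface mucin, rose 15.2-fold on the probe that was bright on both arrays, from 1.09 to 5.01. Outside the list, GPD1, which makes the glycerol phosphate backbone of triglycerides, rose 21.4-fold, from 0.87 to 5.29.

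Of the 33 probes compared for cholesterol synthesis and uptake, 5 passed 3-fold upward and 1 downward, against 9.52% and 10.6% of all probes compared, with a median change of 0.82. The upward count is near that share. SREBF2, the transcription factor that drives cholesterol synthesis genes, rose 4.67-fold on 1 of its 2 probes, from 2.07 to 4.30, while its other probe changed by -1.01.

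Defence proteins of milk and mammary tissue were also high at 16 h. Of 103 probes, 7 lay in the dark regions, 54 were dim on both arrays, 1 was lost to outlier marks and 41 were compared. Of these, 35 passed 3-fold upward and 1 downward, against 9.52% and 10.6% of all probes, with a median change of 3.71. Of the 41, 31 were dim in CTR and entered through the 16 h array, so this count gives no support on its own. Of the 9 that were bright on both arrays, 5 were 3-fold higher, against 2.93% of all such probes, with a median change of 2.29. C3, the central complement component, reached 6.48 on its brightest probe, at least 112-fold above CTR. That probe read 2.96 at 2 h and -0.91 at 4 h. S100A12, an alarmin of neutrophils, reached 4.88 from -1.09, at least 37.0-fold. DEFB, a beta-defensin outside the list whose probe was bright on both arrays, rose 16.2-fold, from 3.24 to 7.26. It read 5.86 and 6.24 on the 2 h and 4 h arrays and between 3.37 and 3.85 on the CTR slide's later arrays.

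Some chemokine and MHC probes were also higher. Over all probes compared, 9.52% were 3-fold higher and 10.6% were 3-fold lower. Among those bright on both arrays it was 2.93% and 3.43%. Of 13 chemokine probes compared, 8 were 3-fold higher and none was 3-fold lower, with a median change of 3.43, but 7 of the 13 were dim in CTR and entered through the 16 h array. Of the 6 bright on both arrays, 1 was 3-fold higher and the median change was 0.28. CXCL3, a neutrophil attractant, rose 23.8-fold, from 0.03 to 4.60, and read 5.75 at 2 h. For MHC class II, which presents peptides to helper T cells, 13 of 14 probes compared were 3-fold higher, 12 of the 14 being dim in CTR and entering through the 16 h array. The remaining probe, of BOLA-DQA2 in rows 141 to 145, was at least 2.42-fold lower. BOLA-DRA, the class II alpha chain, reached 3.89 at 16 h from -1.66, at least 18.6-fold higher. For MHC class I and peptide loading, 13 of 28 probes were 3-fold higher and none was lower, with a median change of 1.38, and over the 21 bright on both arrays 7 were 3-fold higher with a median of 1.01.

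More markers of other cell types were above background at 16 h than in CTR, and the lists differed across the other arrays. Of 62 fibroblast probes, 30 were well above background at 16 h and 11 in CTR. For 92 leukocyte probes it was 25 and 11, and for 39 endothelial probes 6 and 1. Left out in the dark regions were 3, 10 and 6 probes. In the same order, the counts were 11, 60 and 3 on the 2 h array and 19, 24 and 6 on the 4 h array. Of all spots outside the controls, 25.6% were well above background at 16 h, 26.5% in CTR, 40.2% at 2 h and 37.6% at 4 h. DCN, decorin, a proteoglycan of fibroblasts, reached 6.08 at 16 h on its brightest probe from the CTR noise level, at least 84.8-fold higher, and 2.35 at 4 h. BGN, biglycan, its relative, reached 5.74, at least 66.9-fold, on 1 probe, while its other probe was above background in CTR alone. COL1A2, a chain of type I collagen, reached 2.94, at least 9.64-fold. Among fibroblast probes bright on both arrays, 1 of DCN changed by 0.38, 1 of COL1A1 by -1.38 and 1 of COL3A1 by -0.42. DPT changed by 0.32 and S100A4, on 2 probes, by 3.39 and 3.72.

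The leukocyte markers CSF1R, CD52 and CD53 reached 2.57, 3.11 and 1.58 from the CTR noise level. Others went the opposite way: IL2RG and CD79A were above background in CTR alone, at least 2.88-fold and 3.00-fold lower, LYZ, lysozyme, changed by -1.44, CD4 by -0.70, TLR2 by -0.27 and the LCP1 probes by -0.43 and -0.68. PTPRC, the pan-leukocyte phosphatase CD45, went from 1.72 to 3.37 on a probe in rows 81 to 180. Of the endothelial markers, CLDN5 reached 2.94, VWF 0.55 and PECAM1 -0.04, all from the CTR noise level. VIM, a filament of mesenchymal and cultured cells, was bright on both arrays on 5 probes, with changes of -0.30, -0.35 and -0.38 on 3 of them and of -1.35 and -1.54 on the 2 in rows 81 to 180. Over the marker probes bright on both arrays, the median change was -0.35 for the 11 fibroblast and -0.27 for the 9 leukocyte probes. A culture that holds more cells of a type and cells with more of its RNA cannot be told apart here, and the part of these markers in the other results was not tested.

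The epithelial label was checked against luminal and myoepithelial markers, of which 32 of 64 probes were compared. Of these, 8 passed 3-fold upward and 4 downward, against 9.52% and 10.6% of all probes, with a median change of 0.31. All 4 lower probes belonged to KRT8, a luminal marker. Dim in CTR were 7 of the 32. Of the 22 bright on both arrays, 3 were 3-fold higher and 1 was lower, against 2.93% and 3.43% of all such probes. The higher ones were of MUC1, from 1.09 to 5.01, GATA3, from 2.05 to 4.39, and ERBB3, from 2.06 to 3.93. KRT7, a luminal keratin, read 5.68 in CTR and 4.56 at 16 h. KRT19 read 7.07 in CTR and 7.68 at 16 h, KRT5 read 7.91 and 7.17, and KRT14 read 5.58 and 5.17. EPCAM read 2.52 and 2.60, and CDH1, E-cadherin, 3.41 and 3.78. ACTA2, the smooth muscle actin of myoepithelium, read 7.41 and 7.01. The KRT14 probe lies in rows 81 to 180. These markers were above background on both arrays, but others were not. KRT18, of luminal cells, was at the noise level in CTR and at 0.07 at 16 h on the only probe compared, and the myoepithelial markers CNN1 and MYH11 were at the CTR noise level and above background at 16 h.

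Keratins split by member. KRT8, a luminal keratin, was lower on all 4 probes, all outside rows 81 to 180, and 3 of them were dim at 16 h, at least 4.49-fold to 10.3-fold lower. The probe printed above went from 3.1 to -0.25 and had the highest of these bounds. The probe bright on both arrays fell 4.86-fold, from 6.99 to 4.71, and read 4.37 and 4.15 on the 2 h and 4 h arrays and between 6.39 and 6.74 on the later arrays of the CTR slide. KRT78, a keratin of stratified epithelium, rose 46.1-fold on its brightest probe, from -0.16 to 5.36. KRT15, a keratin of basal cells, rose 13.5-fold on 1 probe, from 1.13 to 4.88, and was higher on 3 of 4 probes; the remaining probe, inside rows 141 to 145, went from 3.92 to the noise level. KRT80 rose 4.01-fold and 4.03-fold on its 2 probes.

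The other leading rises among probes bright on both arrays were of mixed function. QSOX1, an enzyme that forms disulfide bonds in secreted proteins, rose 31.3-fold, from 0.21 to 5.18. PHGR1 rose 20.2-fold and 23.8-fold on its 2 probes. SPTBN1, a spectrin of the membrane skeleton, rose 23.4-fold, from 0.37 to 4.92, with a change of 3.67 on its other bright probe and 3 further probes, dim in CTR, also higher. EGFL7, a secreted factor of endothelial cells, rose 19.3-fold, from -0.12 to 4.15. TMEM120B, a membrane protein, rose 15.6-fold, from 0.50 to 4.47, and read 4.52 at 4 h.

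No probe of the HSP70, HSP90, DNAJ or endoplasmic reticulum chaperone lists was 3-fold higher at 16 h, while some small heat shock proteins were. Of 15 HSP70 and HSP110 probes compared, none was 3-fold higher and 4 were 3-fold lower, with a median change of -0.55. Over all probes 9.52% were 3-fold higher, so a count of 0 in a list of this size is near the share of all probes. The share of all probes that were 3-fold lower was 10.6%. Outside the rows that read low at 16 h, 4 of 13 probes of this list were 3-fold lower, against 6.63% of all probes there. Among the 12 bright on both arrays, 2 were 3-fold lower, against 3.43% of all such probes. HSPA1A, the stress-inducible HSP70, had 3 probes with changes from -0.85 to 0.70. Its probe with the highest CTR level read 2.67 in CTR and 2.61 at 16 h, with 4.76 and 3.46 on the 2 h and 4 h arrays, 7.71 and 5.07 on the 8 h and 12 h arrays and 1.85 on the 24 h array. HSPA8, the constitutive HSP70, was lower on all 4 probes, most on 1 that fell 5.04-fold, from 5.6 to 3.26. HSPH1, an HSP110 that helps HSP70 release its substrate, read 1.55 in CTR and 0.36 at 16 h.

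Of 31 probes for HSP90, HSP60 and their co-chaperones, none was 3-fold higher and 5 were 3-fold lower, with a median change of -0.28. Over all probes compared, 9.52% were 3-fold higher and 10.6% were 3-fold lower. Outside rows 81 to 180, 3 of 25 probes of this list were 3-fold lower, against 6.63% of all probes there. HSPD1, the mitochondrial chaperonin HSP60, fell 4.30-fold on 1 probe, from 2.97 to 0.87, and its 5 probes ran from -2.10 to 0.04. HSP90AA1, the inducible HSP90, had 6 probes, with changes from -0.70 to 0.87 outside rows 81 to 180 and of -0.02 and -1.80 on the 2 probes inside them. Of the co-chaperones and endoplasmic reticulum chaperones, none of 35 DNAJ probes and none of 44 endoplasmic reticulum probes was 3-fold higher. Of these, 6 and 3 were 3-fold lower, and outside rows 81 to 180 it was 4 of 31 and 3 of 38. Bright on both arrays were 3 lower probes of the HSP90 and HSP60 list, 1 of DNAJ and 2 of the endoplasmic reticulum list.

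The small heat shock proteins and BAG exchange factors counted 4 probes 3-fold higher and 2 lower of 14. Over all probes compared these shares were 9.52% and 10.6%. HSPB1, HSP27, which holds unfolding proteins, rose 4.40-fold, from 6.59 to 8.73. HSPB8 went from -1.52 to 3.69, at least 16.1-fold higher, and read 4.63 at 8 h and 0.20 at 24 h. CRYAB, alpha-B-crystallin, went from -0.64 to 2.25 on its brighter probe, at least 5.95-fold higher. Both 3-fold lower probes of the list belonged to BAG2 and lay in rows 81 to 180.

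**Figure D4:**
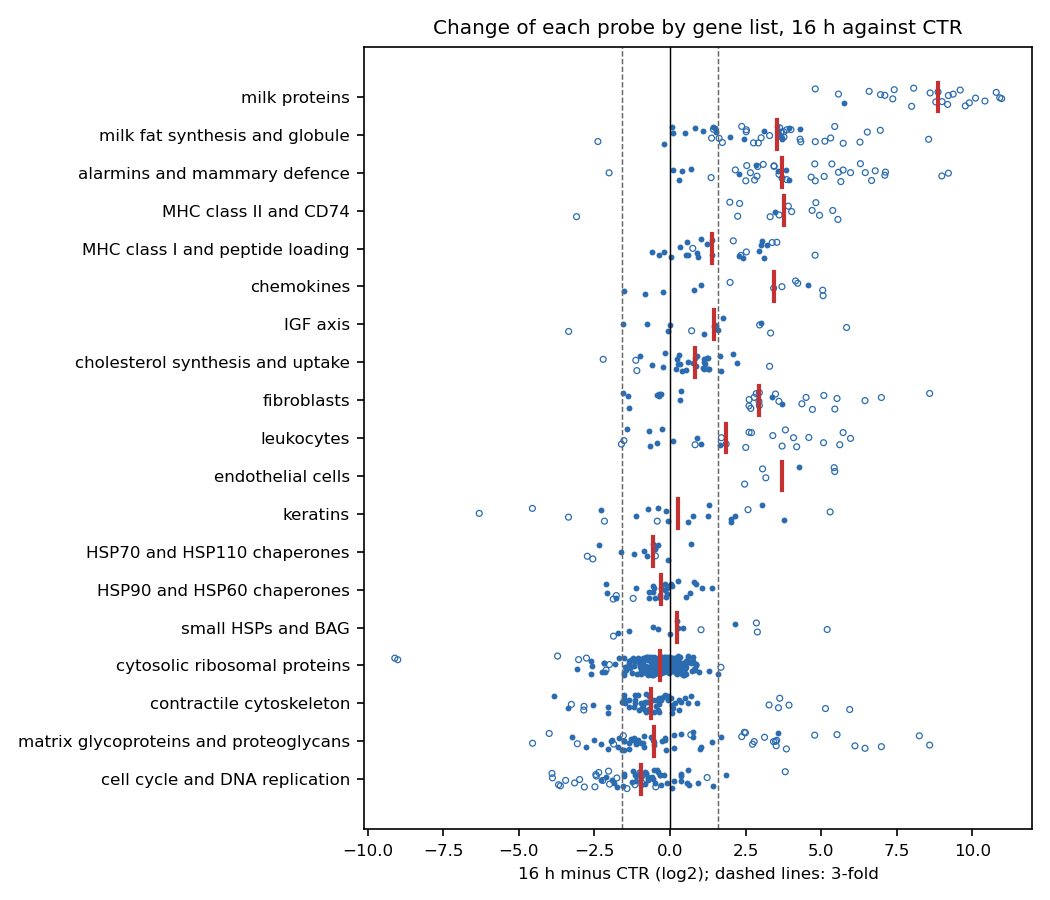
Change of each compared probe (16 h minus CTR, log2, x axis) in 19 gene lists (y axis), 1 array each. Filled points were well above background on both arrays, open points on 1, red bars are list medians and dashed lines mark 3-fold. All milk protein probes lie right of the 3-fold line, and no HSP70 or HSP90 probe does.

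The leading falls outside rows 81 to 180 were of mixed function. ANKRD1, a nuclear protein induced by stretch and by YAP, was 10.6-fold lower, from 3.35 to -0.06, and its other 2 probes, inside those rows, fell by 3.83 and 3.93 on the log2 scale. CALD1, caldesmon, which binds actin and tropomyosin, was 10.4-fold lower, from 7.49 to 4.12, while another bright probe changed by -0.46. It read 4.71 and 4.98 on the 2 h and 4 h arrays and between 5.80 and 6.82 on the later arrays of the CTR slide. HS3ST2, an enzyme that sulfates heparan chains, was 11.9-fold lower, from 4.24 to 0.67, with a change of -2.66 on its other bright probe and 2 further probes, dim at 16 h, also lower. LAMB3, a laminin chain of epithelial basement membrane, was 9.39-fold lower, from 4.49 to 1.26, on a probe in row 185, and its other probe changed by -1.09.

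For some of the further falls, all compared probes of the gene were lower, and for others they split. CTNNA1, alpha-catenin, which ties cadherins to actin, was 7.51-fold lower, from 4.39 to 1.48, and its other 2 probes compared, both lower, lie in rows 81 to 180. F3, tissue factor, which starts blood clotting, was 7.96-fold lower, from 5.46 to 2.47, on a probe in row 66. Its other probe changed by -1.62. SLC2A3, a glucose transporter, was 7.15-fold lower, from 4.55 to 1.71, with another bright probe changed by -2.56 and the remaining one, dim at 16 h, at least 1.70-fold lower. ABCF1, CABP2, ATF6B and RPS23 were 8.73-fold, 8.20-fold, 8.12-fold and 8.35-fold lower on 1 probe each, and ATF6B and RPS23 had another probe at 0.67 and -0.42. Among probes dim at 16 h, LAMA4, a laminin chain, was at least 20.9-fold lower, from 3.81.

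By list, 9 of 65 contractile cytoskeleton probes were 3-fold lower and 6 were 3-fold higher, with a median change of -0.61. Both counts are near the 10.6% and 9.52% of all probes compared. Outside rows 81 to 180 it was 6 of 55 each way, against 6.63% lower and 10.4% higher of all probes there. The 6 higher probes, of genes such as MYH11, the smooth muscle myosin, and CNN1, calponin, were all dim in CTR, and MYH11 reached 3.43 on its brighter probe. Of 67 matrix glycoprotein and proteoglycan probes, 20 passed 3-fold upward and 14 downward, against 9.52% and 10.6% of all probes, and 19 were dim in CTR. Over the 43 bright on both arrays, 2 were 3-fold higher and 10 were 3-fold lower, against 2.93% and 3.43% of all such probes. Their median change was -0.96. CYR61, a matricellular target of YAP, was 6.88-fold lower on 1 probe, in row 45, from 3.63 to 0.85. Its other probe changed by -2.04.

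Some cell cycle and DNA replication genes were lower. Of 71 probes compared, 21 were 3-fold lower and 2 were 3-fold higher, against 10.6% and 9.52% of all probes, with a median change of -0.96. Outside rows 81 to 180 it was 13 lower and 2 higher of 59, against 6.63% and 10.4% of all probes there, with a median of -0.81. Of the 71, 22 were dim at 16 h and entered through the CTR array, so these counts give no support on their own. Over the 47 probes bright on both arrays the median was -0.72, and 5 were 3-fold lower, against 3.43% of all such probes. The higher ones were CDKN1C, a kinase inhibitor that halts the cycle, from -1.38 to 2.44, and CCND1, cyclin D1, which rose 3.64-fold, from 4.36 to 6.22. The same probes had medians from -0.96 on the 2 h array to -0.41 on the 4 h array at the other times.

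Several groups moved little. For the counts given here, 9.52% of all probes compared were 3-fold higher and 10.6% were 3-fold lower. The 225 cytosolic ribosomal protein probes had a median change of -0.31, with 1 3-fold higher and 17 lower. Oxidative phosphorylation subunits had a median of -0.06, and the 58 housekeeping probes a median of -0.10 with 1 higher and 4 lower. Of 62 antioxidant probes, 10 were 3-fold higher and 7 lower. HMOX1, heme oxygenase, rose 7.50-fold, from 2.98 to 5.89, and read between 3.24 and 4.66 at the other times, 30 min aside. MGST1, a microsomal glutathione transferase, rose 12.8-fold, from 0.24 to 3.92.

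Where a gene had several bright probes, they often shared the direction and less often the size. Outside the 2 narrow bands, 67 genes with a probe 3-fold higher had 104 further probes bright on both arrays, of which 92 were also higher and 32 were 3-fold higher, with a median change of 0.93. The 136 genes with a probe 3-fold lower had 256 further probes, of which 205 were also lower and 30 were 3-fold lower, with a median of -0.61. The probe with the largest change of each gene was set aside for this count.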

How the data were processed

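The authors scanned the slides on a GenePix-4000B and extracted spot intensity with Feature Extraction 9.5.3.1, including removal of spatial trends; the intensity deposited by the authors is not scaled across arrays. GeneSpring log2 values, which the authors deposited after a 75th percentile shift and centring of each probe, served as an alternative. Here spots of 1 probe were averaged after outlier-marked spots were left out, and the 75th percentile was subtracted from log2 intensities. Mean and background intensities, deposited by the authors, went into normexp (limma 3.58.1, offset 50). Python 3.11.15, numpy 2.4.6 and pandas 2.3.3 were used, and the code was tested on simulated data. Gene names are those of the array design, and 12848 of 15714 symbols matched a RefSeq buffalo symbol. The members, the 43 gene lists, the rule and the alternatives were chosen with earlier results of these data known. Named were the 12 largest rises and falls among probes bright on both arrays, the 8 largest bounds each way, and, of each list, its 2 largest 3-fold changes each way and its defining genes. Falls were named again outside rows that read low. Dim row bands had a 10% quantile of -3 or lower in 3 or more rows, and wider blocks of 20 rows a median of -0.4 or lower.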

Additional observations from a re-analysis of the deposited data

How the results depend on the processing

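No paired analysis was possible because every label gives replicate 1 only. Against 1151 probes higher and 1286 lower (47.2% of 3-fold probes higher), the counts were 257 and 301 over probes bright on both arrays, 579 and 346 (62.6%) with normexp, 655 and 579 with both arrays floored, and 524 and 257 (67.1%) at a log2 change of 3. They were 1739 and 1440 with the dark regions kept and 841 and 842 over gene names. With rows 81 to 180 left out, an alternative chosen after the data were seen like that of the 2 narrow bands, they were 1043 and 668 (61.0%). Scaling by the median, by bright probes or by quantiles, the deposited log2 values, kept outlier spots, the local median and no filter left both counts within 1.5 times.

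List medians that moved did so mostly with the treatment of dim probes. Of 43 lists, 18 moved with no filter and 8 over probes bright on both arrays, where 2 past 3-fold turned sign. Medians that moved are given here for lists with a main median past 3-fold, the 2-probe interleukin list aside. Over probes bright on both arrays the fibroblast and leukocyte medians turned negative, at -0.35 and -0.27, and the others were 0.28 for chemokines, 2.29 for alarmins and defence, 5.76 for milk proteins, 1.97 for milk fat and 4.27 for endothelial cells. The collagen chains median, under 3-fold, also turned negative, from 0.82 to -0.56 over the 16 probes bright on both arrays. With no filter the medians were 0.15 for chemokines, 2.24 for MHC class II, 0.12 for leukocytes and for endothelial cells, 0.46 for alarmins and defence, 1.44 for milk fat and 0.38 for fibroblasts. With normexp they were 1.36 for chemokines, 2.23 for MHC class II, 1.13 for leukocytes, 2.72 for alarmins and defence, 6.15 for milk proteins, 1.66 for milk fat, 1.08 for fibroblasts and 2.70 for endothelial cells. With both arrays floored they were 1.24, 1.93, 1.01, 2.49, 6.82, 2.09, 1.04 and 2.12 in the same order. The leukocyte median was 2.51 with the dark regions kept and 2.58 with the local median subtracted. The cause of these moves was not tested. No named probe with a change of at least 3-fold changed sign under any of these alternatives that gave it a value. Smaller changes were not checked for sign. Of 339 named probes, 200 moved with normexp and 151 with the floor. Low signal on the 16 h array, a single array in each condition and separate slides limit every value.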
